A study of Arabidopsis thaliana with 29 samples.

Results

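H3K27me3 peaks that were called in both PRC1 mutants of Arabidopsis thaliana but in neither Col-0 library are described here. They were selected on the authors' peak calls, as peaks of the first atbmi1a,b list on chromosomes 1 to 5 that overlapped a peak of the first atring1a,b list by at least 1 bp. Peaks that touched any peak of either Col-0 list or of the first clf-29 list were left out. This left 462 of 4439 peaks, and the 10 H3K27me3 lists of the series held 49103 peaks in all. These 462 regions are called shared new peaks below, and 215 further atbmi1a,b peaks absent from both Col-0 lists are called other new peaks. The remaining 3762 atbmi1a,b peaks overlapped a Col-0 peak. New means only that no Col-0 peak was called, which does not show that Col-0 lacked the mark. The Col-0 lists held 5055 and 2983 peaks. The study reports that peak overlap performed poorly, as some peaks seem unique only because the other sample falls just short of the cutoff.

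All plants were untreated, carried the Col-0 (Col) background and were grown with 16 h of light, and seedlings were harvested without roots after 2 weeks according to the labels. ChIP-seq covered atbmi1a,b (mutated in AtBMI1A and AtBMI1B), atring1a,b (mutated in AtRING1A and AtRING1B), clf-29 (mutated in the PRC2 methyltransferase gene CLF) and Col-0 with 2 libraries each, and the LHP1 mutants tfl2-2 and lhp1-6 with 1 each. RNA-seq covered the same lines and added swn-21 (labelled swn, mutated in SWN, a second PRC2 methyltransferase gene) and the double mutant clf-29swn-21, giving 14 libraries in 7 groups with tfl2-2 and lhp1-6 as 1 group. Libraries without antibody were not analysed here. Growth was at 21 °C according to the labels of the first libraries from atbmi1a,b, atring1a,b, clf-29, clf-29swn-21 and Col-0 and of tfl2-2 and the lhp1-6 RNA, and at 22 °C for the second libraries, both swn-21 libraries and the lhp1-6 ChIP, whereas the study's methods give 22 °C throughout. For clf-29swn-21 the methods name entire plants from culture medium, whereas the labels name seedlings without roots. Each mutant allele is 1 line. The study calls the second libraries of atbmi1a,b, clf-29 and atring1a,b RNA biological replicates. It describes tfl2-2 and lhp1-6 as independent lines, so the spread in that group includes the difference between 2 lines. For the remaining pairs the 2 samples may be technical. The main test fitted all 14 libraries together, so the 7 groups shared the estimate of each gene's spread. Every p-value from it therefore measures the spread within all these pairs, including the difference between tfl2-2 and lhp1-6.

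H3K27me3, trimethylation of lysine 27 on histone H3, is written by the Polycomb repressive complex PRC2 and marks genes that are kept silent. PRC1 contains RING finger proteins, in Arabidopsis AtBMI1 and AtRING1, which attach ubiquitin to histone H2A, and LHP1 is a chromodomain protein that binds H3K27me3. In seedlings these complexes are known for keeping seed, embryo and flower genes off.

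To show what such regions contain, the central 300 bases of the 3 highest-scoring shared new peaks that also had a peak in the second atbmi1a,b and the second atring1a,b list are given, on the forward strand of the TAIR10 nuclear chromosomes as distributed by RefSeq. The window at chr3:9898883-9899182 lies within the peak chr3:9898335-9899730 and across AT3G26855, annotated as related to reverse transcriptase, and its capitals mark the 121 bases annotated as coding. The window at chr4:7784432-7784731 lies within the peak chr4:7783775-7785388 and within the coding sequence of EXT12 (AT4G13390), a proline-rich extensin-like protein, and extensins are structural proteins of the plant cell wall. Its capitals mark the 6 in-frame runs of a serine codon followed by at least 3 proline codons, the repeat typical of extensins. The window at chr5:1511340-1511639 lies within the peak chr5:1510971-1512009 and within the coding sequence of AT5G05120, annotated as a C2H2 and C2HC zinc finger protein, and its capitals mark a GA repeat of 8 bases.
AT3G26855 window: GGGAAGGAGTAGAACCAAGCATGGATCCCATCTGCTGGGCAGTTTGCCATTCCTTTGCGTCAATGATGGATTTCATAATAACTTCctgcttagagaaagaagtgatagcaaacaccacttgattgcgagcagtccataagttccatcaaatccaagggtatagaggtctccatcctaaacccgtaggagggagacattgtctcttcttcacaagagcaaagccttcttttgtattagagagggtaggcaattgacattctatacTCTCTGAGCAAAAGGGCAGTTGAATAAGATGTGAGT
EXT12 window: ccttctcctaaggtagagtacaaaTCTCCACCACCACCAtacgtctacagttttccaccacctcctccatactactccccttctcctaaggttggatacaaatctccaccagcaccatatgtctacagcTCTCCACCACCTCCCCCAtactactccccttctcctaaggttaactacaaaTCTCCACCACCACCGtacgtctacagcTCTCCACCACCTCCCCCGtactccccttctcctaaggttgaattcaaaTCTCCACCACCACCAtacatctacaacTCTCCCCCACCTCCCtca
AT5G05120 window: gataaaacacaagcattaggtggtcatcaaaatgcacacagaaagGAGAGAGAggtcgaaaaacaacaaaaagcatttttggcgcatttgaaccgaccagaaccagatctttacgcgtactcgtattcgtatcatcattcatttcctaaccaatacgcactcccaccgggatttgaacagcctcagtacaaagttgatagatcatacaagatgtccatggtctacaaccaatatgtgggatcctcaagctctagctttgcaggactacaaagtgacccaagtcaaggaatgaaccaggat

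The shared new peaks were short and weak. Their median length was 1073.5 bp (489 to 7297 bp), compared with 1050 bp for the other new peaks and 1707 bp for atbmi1a,b peaks with a Col-0 peak. Their median score, the authors' peak caller value, was 78.3 (50.04 to 301), against 70.9 for the other new peaks and 163 for peaks with a Col-0 peak. Scores were used only to rank peaks within a list, because the files do not name the scale. In atring1a,b the same regions lay in broader domains, since the overlapping peak had a median length of 3436 bp and was longer in all 462 cases. These peaks covered 439 shared new peaks completely, and 128 shared new peaks (27.7%) lay in an atring1a,b peak that also overlapped a Col-0 peak elsewhere. The first atring1a,b list covered 21.8% of the genome, against 4.15% to 9.74% in each of the other 9 lists, and in the study's read statistics this library had the most mapped reads of the ChIP samples. The overlap with atring1a,b removed 62 of 524 candidates, while the first clf-29 list removed 153 of 677. These lengths, scores and overlaps describe the values that chose the regions and were not tested. At the edge of the definition, the smallest overlaps with an atring1a,b peak were 34 and 151 bp and the closest peaks of the excluded lists lay 16, 26 and 28 bp away. Just outside it, 3 atbmi1a,b peaks shared 14, 16 and 37 bp with a peak of an excluded list, and the nearest candidate that missed an atring1a,b peak lay 212 bp from one.

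**Figure D1:**
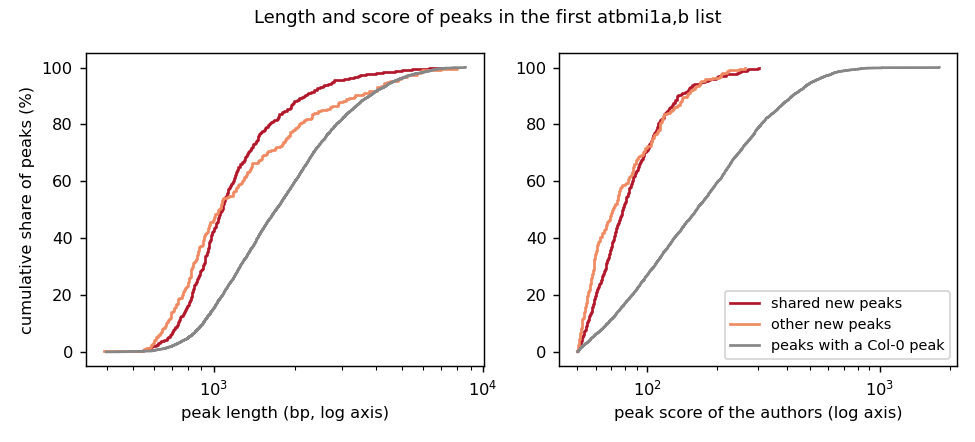
Cumulative share of atbmi1a,b peaks (percent) by length in bp (left, log axis) and by the authors' score (right, log axis) for shared new peaks, other new peaks and peaks with a Col-0 peak. The curves of both kinds of new peaks lie left of that of peaks with a Col-0 peak in the score panel, with medians of 78.3, 70.9 and 163.

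Presence in the lists that the definition did not use differed between lists. In the second atbmi1a,b list, 248 of 462 shared new peaks (53.7%, 95% Wilson interval 49.1 to 58.2) had a peak, as did 40.5% of the other new peaks, 61.2% of peaks with a Col-0 peak and 59.4% of all atbmi1a,b peaks. The second atring1a,b list, from the H3K27me3 library with the fewest mapped reads in the study's statistics, held 52 of them (11.3%, interval 8.69 to 14.5), against 10.2% of the other new peaks, 49.3% of peaks with a Col-0 peak and 43.4% of all. Both second lists held 39 regions (8.44%). All intervals cover counting error only and come from 1 library for each list. Because scores differed between the classes, the shares were also taken among peaks scored between 63.2 and 105, the middle range of the shared new peaks. There the second atring1a,b list held 8.26% of 230 shared new peaks and 33.3% of 811 peaks with a Col-0 peak, while the second atbmi1a,b list held 57.4% and 59.1%.

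Mutants of other PcG genes also carried H3K27me3 at many of these regions. The tfl2-2 list held 239 of them (51.7%, interval 47.2 to 56.3) and the lhp1-6 list 156 (33.8%, interval 29.6 to 38.2). These lists held 73.0% and 62.8% of the other new peaks, 94.5% and 94.1% of peaks with a Col-0 peak and 89% and 86.3% of all atbmi1a,b peaks. In the second clf-29 list the count was 52 (11.3%), against 43.7% of the other new peaks, 74.1% of peaks with a Col-0 peak and 66.1% of all. This low share is partly set by the definition, which excluded the first clf-29 list and left 153 peaks found there among the other new peaks. In all, 285 regions (61.7%) had a peak in the second clf-29, the tfl2-2 or the lhp1-6 list. A further 100 (21.6%) had a peak in the second atbmi1a,b list and in none of these 3, compared with 6.51% of the other new peaks and 0.984% of peaks with a Col-0 peak. In none of the 5 unused lists were 74 regions (16.0%, against 14.4% of the other new peaks and 0.558% of peaks with a Col-0 peak), and 2 regions appeared in all 5. In 3 equal groups of rising score (154 regions each) the second atbmi1a,b list held 44.2%, 54.5% and 62.3% and the second atring1a,b list 5.84%, 7.14% and 20.8%. The tfl2-2 list held 38.3%, 55.2% and 61.7% and the lhp1-6 list 29.2%, 38.3% and 33.8%, so the share was larger at higher scores in the tfl2-2 list as well as in both second PRC1 mutant lists.

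**Figure D2:**
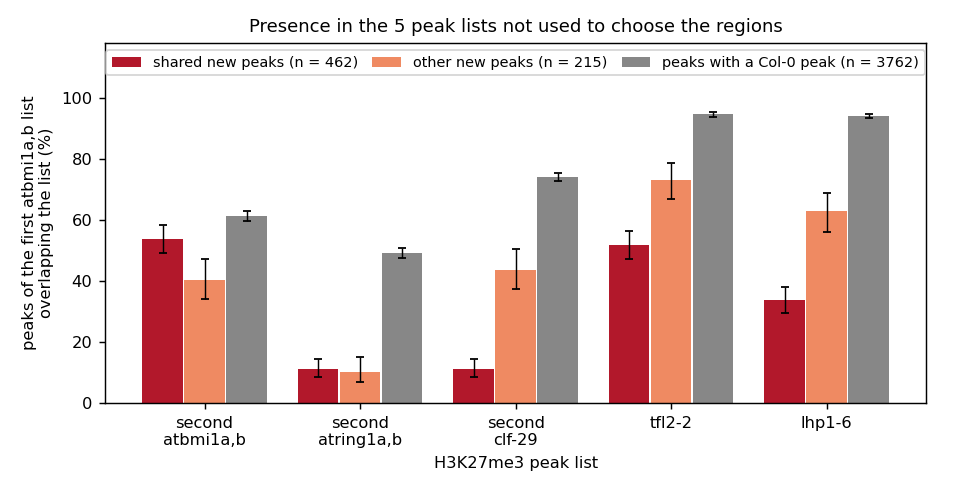
Share of atbmi1a,b peaks (percent) that overlapped a peak in each of the 5 H3K27me3 lists not used to choose the regions, with bars for shared new peaks (n = 462), other new peaks (n = 215) and peaks with a Col-0 peak (n = 3762) and 95% Wilson intervals as error bars. Shared new peaks reach 53.7% in the second atbmi1a,b list and 51.7% in tfl2-2, and 11.3% in each of the second atring1a,b and clf-29 lists.

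Shared new peaks were more often away from genes than peaks with a Col-0 peak. The centre lay in a gene body for 65.2%, within 1000 bp upstream of a gene for 6.93% and between genes for 27.9% of the 462 regions, against 79.3%, 8.03% and 12.7% of peaks with a Col-0 peak. Only 138 regions (29.9%, interval 25.9 to 34.2) covered the start of a protein-coding gene, compared with 43.7% of the other new peaks and 61.8% of peaks with a Col-0 peak. These shares were not adjusted for peak length, whose median was 1073.5 bp, 1050 bp and 1707 bp in the same order. A pseudogene held the centre of 21 regions (4.55%), against 1.20% of peaks with a Col-0 peak. The 17 bins of 1 Mb richest in pseudogenes, which make up 14.3% of the genome, held 53 regions (11.5%, interval 8.88 to 14.7) and 2.66% of peaks with a Col-0 peak. The other new peaks had 12.1% in these bins. Another shared new peak lay within 10000 bp of 98 regions (21.2%). A peak of the same class lay that near for 11.2% of the other new peaks. For the more numerous peaks with a Col-0 peak this share was 60.5%. The median distance to the nearest Col-0 peak was 4406.5 bp, and 85 regions lay within 1000 bp of one.

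In windows of 1000 bp around the peak centres, the median GC content was 35.3% in shared new peaks, 37.6% in other new peaks, 37.5% in peaks with a Col-0 peak and 36.6% in 119144 windows tiled over the genome. Short motifs known from plant Polycomb targets or light and seed genes were searched on both strands, and matches of different motifs could overlap. The telobox AAACCCTAA occurred in 48 windows (10.4%, interval 7.93 to 13.5), against 7.44% of other new peaks, 13.1% of peaks with a Col-0 peak and 7.05% of tiled windows. The GA repeat GAGAGA was found in 56.1%, 60.5%, 64.3% and 58.7% in the same order. The RY element CATGCA, bound by seed regulators of the B3 family, occurred in 31.6% of shared new peaks, 30.2% of other new peaks, 45.6% of peaks with a Col-0 peak and 33.4% of tiled windows. The G-box CACGTG was present in 30 windows (6.49%, interval 4.59 to 9.12), compared with 7.91%, 15.2% and 10.3%. The interval of the G-box share lay below the share of tiled windows, that of the telobox above it, and those of the GA repeat and the RY element included it. In windows of 500 bp the telobox interval still lay above the share of tiled windows, the G-box interval included it, and the median GC content was 38.2% in shared new peaks, above the 36.6% of tiled windows. A match describes the letters of a window and does not show that a factor binds there.

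A gene was taken as a target when a peak overlapped its body or the 1000 bp upstream of its start. Of the shared new peaks, 378 had at least 1 target and 84 had none, and together they had 489 target genes, of which 418 had no Col-0 peak under the same rule and 71 did. The targets comprised 421 protein-coding genes, 58 pseudogenes with or without transcripts and 7 miRNA genes. Words of the gene descriptions were counted after the values were seen. Genes described as extensin or extensin-like made up 5 targets (1.02%, against 0.171% of counted genes) and leucine-rich repeat proteins 11 (2.25% against 0.679%). For 2-oxoglutarate-dependent enzymes there were 7 (1.43% against 0.323%) and for polyketide cyclases 5 (1.02% against 0.122%). Cytochromes P450 made up 8 (1.64% against 0.755%), transporters 13 (2.66% against 1.41%), P-loop proteins 5 (1.02% against 0.573%) and reverse transcriptases 2 (0.409% against 0.0944%). The glutathione S-transferases were 4 neighbouring genes, GSTU1 to GSTU4, at 2 peaks, so these counts are not independent. F-box genes, encoding substrate adaptors of ubiquitin ligases, contributed 7 targets (1.43% against 1.92%), and all 7 had no reads in Col-0.

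Target genes were mostly silent in Col-0. Their median level was 0.0659 RPKM (reads scaled to exon length and library size, mean of 2 Col-0 libraries), 318 of 489 (65.0%) lay under 1 RPKM and 179 had no reads. Targets of peaks with a Col-0 peak had a median of 0.137 RPKM and 63.9% under 1, while all 32835 counted genes had a median of 2.28 RPKM and 44.9% under 1. A smaller part was highly expressed: 70 targets (14.3%) reached 10 RPKM, among them RBCS3B (AT5G38410), a small subunit of Rubisco, at 822 RPKM, the polyubiquitin gene UBQ10 (AT4G05320) at 497 RPKM, the extensin-like gene ELP (AT1G12090) at 337 RPKM and PBP1 (AT3G16420), a lectin that binds the beta-glucosidase PYK10, at 323 RPKM. The peak lay upstream of RBCS3B and UBQ10 and within ELP and PBP1. Their log2 changes in atbmi1a,b were -0.19 for RBCS3B, 0.18 for UBQ10, 0.05 for ELP and 0.10 for PBP1, and the sign of the last 2 turned when atbmi1a,b replicate 2 was left out.

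**Figure D3:**
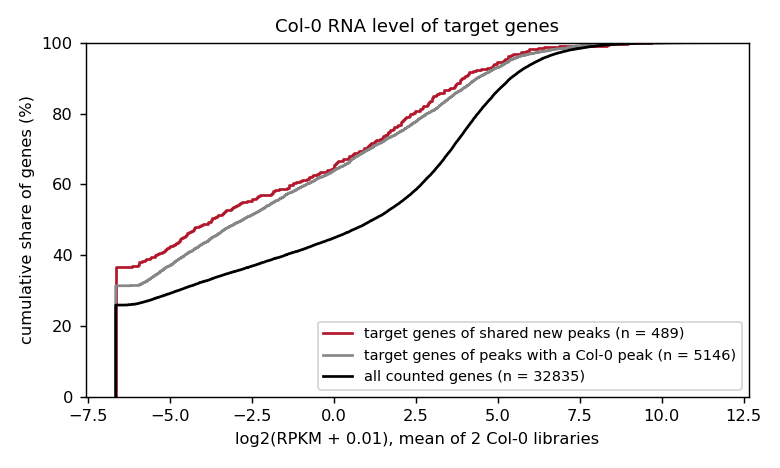
Cumulative share of genes (percent) by RNA level in Col-0, as log2(RPKM + 0.01) of the mean of 2 libraries, for target genes of shared new peaks (n = 489), target genes of peaks with a Col-0 peak (n = 5146) and all counted genes (n = 32835). The curve of all genes lies to the right, and 65.0%, 63.9% and 44.9% of the 3 groups are under 1 RPKM.

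RNA-seq libraries held 17277027 to 36205758 counts on genes. The AtBMI1B gene had 4.37 and 4.87 CPM (gene counts scaled to library size) in atbmi1a,b, against 12.2 and 16.8 CPM in Col-0, and AtRING1B had 1.64 and 0.690 CPM in atring1a,b, against 8.14 and 15.7 CPM in Col-0. AtBMI1A had 13.9 and 22.6 CPM in atbmi1a,b, against 14.5 and 11.3 CPM in Col-0, and AtRING1A had 601 and 828 CPM in atring1a,b, against 14.4 and 18.7 CPM in Col-0. AtBMI1B and AtRING1B thus lay below both Col-0 libraries in their mutants and AtBMI1A and AtRING1A did not. Counts over a whole gene take in exons outside a mutated part, and a note on the study's read tracks describes such exons as still transcribed for one mutated gene. The list of 16 seed and embryo genes, which marks embryonic tissue, summed to 207 and 76.7 CPM in atbmi1a,b, 3218 and 229 CPM in atring1a,b, and 12.9 and 7.37 CPM in Col-0. By the call rule given next, 11 of these genes rose in atbmi1a,b and 14 in atring1a,b, against 3.97% and 5.01% of all genes. At a Benjamini-Hochberg adjusted p under 0.05 in that test, 0 and 5 of them did, against 0.825% and 1.26% of all genes. All 16 lay outside the targets of shared new peaks. Each had reads in all PRC1 mutant libraries, whereas 1 and 8 were at 0 in the Col-0 libraries. The 8 green shoot genes summed to 16082 and 15774 CPM in atbmi1a,b, 14192 and 20615 CPM in atring1a,b, and 18036 and 14827 CPM in Col-0. The 10 root genes summed to 7.73 and 17.1 CPM in atbmi1a,b, 7.10 and 4.63 CPM in atring1a,b, and 1.96 and 5.31 CPM in Col-0. In seedling tissue fewer cells of a type and less RNA per cell cannot be told apart, and the part of embryonic tissue in the values below was not tested.

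Target genes of shared new peaks went down more often than up in atbmi1a,b. A gene was called when its log2 fold change exceeded 1 in either direction with p under 0.05 in edgeR's quasi-likelihood test over all 14 libraries. After the filter on low counts 248 of the 489 targets were tested and 241 were not, so a silent gene could be called only if it became active in a mutant. In atbmi1a,b, 20 of the tested targets (8.06%) fell and 8 (3.23%) rose, while 1.53% of all 22060 genes tested fell and 3.97% rose. The median log2 fold change was -0.23 over the targets and -0.04 over all genes, with 170 targets below 0 and 76 above. Targets of peaks with a Col-0 peak moved the other way, since 80 of 3188 (2.51%) fell and 262 (8.22%) rose. For targets of the other new peaks, 11 of 158 (6.96%) fell and 8 (5.06%) rose, with a median log2 fold change of -0.08. A share of lower calls above that of all genes was thus not particular to the shared new peaks. By a Benjamini-Hochberg adjusted p under 0.05 in the same test, 5 targets of shared new peaks fell and 1 rose, against 0.136% and 0.825% of all genes. With edgeR on the 4 atbmi1a,b and Col-0 libraries alone, 12 of 208 targets (5.77%) fell and 5 (2.40%) rose by the unadjusted rule, against 0.829% and 2.94% of all genes, and none of all genes passed the adjusted threshold. DESeq2 over all libraries left 11 lower and 4 higher targets at an adjusted p under 0.05, against 0.562% and 2.04% of all genes. With the replicate number as a block in edgeR, 28 targets (11.3%) fell and 13 (5.24%) rose, against 2.32% and 4.74% of all genes, and 11 lower and 3 higher targets passed the adjusted threshold, against 0.453% and 1.69% of all genes.

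Lower targets also outnumbered higher ones when targets were chosen by gene body, peak centre, score or presence in a second list. Of 45 tested targets that also had a Col-0 peak, 3 (6.67%) fell and 4 (8.89%) rose. Among the 203 without one, 17 (8.37%) fell and 4 (1.97%) rose. The shares that fell were thus similar, and both were above the 1.53% of all genes. Of the 20 genes that fell, 16 were overlapped in the gene body and 17 had no Col-0 peak. The same held for 166 and 203 of the 248 tested targets. For 18 of the 20 both atbmi1a,b libraries lay below both Col-0 libraries, which the call from these same libraries largely sets. Among targets overlapped in the gene body 16 of 166 tested (9.64%) fell, among targets of peaks scored at least 100 it was 9 of 77 (11.7%), and among targets of peaks found again in the second atbmi1a,b or atring1a,b list 12 of 132 (9.09%) fell and 1 rose. When Col-0 replicate 1 was left out, 25 targets of 271 (9.23%) fell and 13 (4.8%) rose, against 2.29% and 5.36% of all genes.

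In atring1a,b the targets were called in both directions. There 16 of 248 (6.45%) fell and 18 (7.26%) rose, against 2.6% and 5.01% of all genes, and the median log2 fold change was -0.03 over targets and -0.01 over all genes. The adjusted threshold left 1 lower and 3 higher target, against 0.145% and 1.26% of all genes. Without Col-0 replicate 1, 24 targets of 271 (8.86%) fell and 28 (10.3%) rose, against 7.23% and 10.9% of all genes in that fit. With the replicate number as a block, 6 lower and 9 higher targets passed the adjusted threshold, against 0.793% and 2.58% of all genes. Both mutants were compared with the same 2 Col-0 libraries, so these 2 sets of calls are not independent. In the direct comparison of atring1a,b with atbmi1a,b, 39 targets (15.7%) were higher in atring1a,b and 9 (3.63%) lower, while 3.64% and 2.91% of all genes were. The median log2 difference was 0.18 over targets and 0.01 over all genes, and 3 targets were higher at an adjusted p under 0.05, against 0.118% of all genes. Targets of the other new peaks had a median of 0.22, with 10.1% higher and 5.06% lower. For targets of peaks with a Col-0 peak these values were 0.15, 9.54% and 3.89%. The shift towards atring1a,b was thus seen in all 3 classes of peaks.

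The PRC2 and LHP1 mutants gave other patterns with the same Col-0 libraries. In clf-29, which lacked a peak at these regions in its first list by definition, 21 targets (8.47%) rose and 1 fell, against 1.99% and 0.562% of all genes. The median log2 fold change was 0.19 (-0.02 over all genes). At the adjusted threshold 1 target rose, against 5 of all 22060 genes tested. Of the targets of the other new peaks, 6.96% rose and 1.27% fell, with a median of 0.14. For targets of peaks with a Col-0 peak these values were 5.43%, 1.07% and 0.07. A share of higher calls in clf-29 above that of all genes was thus not particular to the shared new peaks. The LHP1 mutants had 12 targets higher and 6 lower (2.01% and 1.93% of all genes), and swn-21 had 9 higher and 6 lower (1.84% and 1.06%). In clf-29swn-21, 61 targets (24.6%) rose and 57 (23.0%) fell, where 16.3% and 15.6% of all genes did. In these libraries the green shoot genes summed to 2576 and 4701 CPM and the seed and embryo genes to 14568 and 22554 CPM, far from Col-0, and their part in the target calls was not tested.

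**Figure D4:**
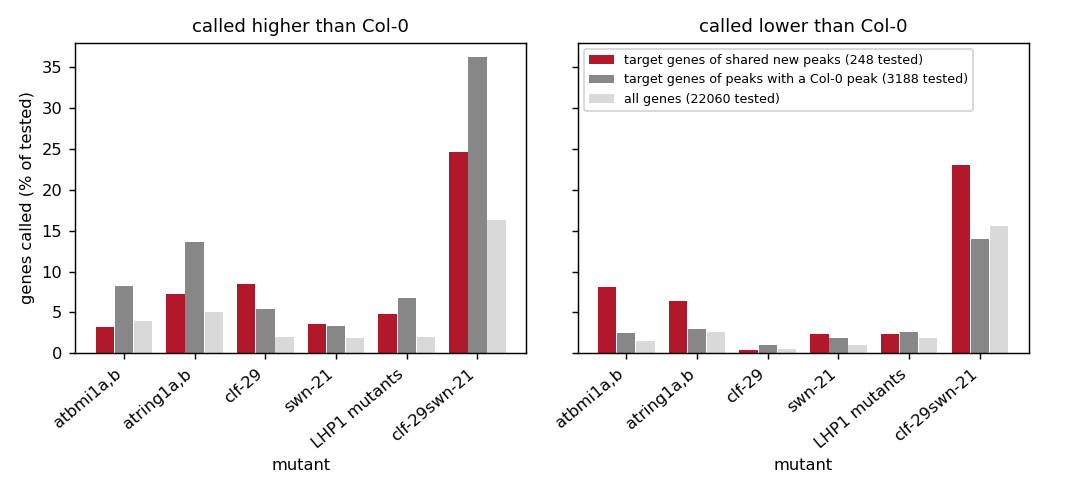
Share of tested genes (percent) called higher (left) or lower (right) in each mutant than in Col-0, for target genes of shared new peaks (248 tested), target genes of peaks with a Col-0 peak (3188 tested) and all genes tested (22060). In atbmi1a,b the shared new peaks have the tallest bar among lower calls (8.06%, against 2.51% and 1.53%) and the shortest among higher calls (3.23%, against 8.22% and 3.97%).

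The 5 genes that passed the adjusted threshold as lower in atbmi1a,b come first, and every adjusted p below is the Benjamini-Hochberg value of the edgeR fit over all genes. Of the 10 alternatives run for each, 9 kept an adjusted p under 0.05 for 4 of these genes and 3 did for the fifth, AT5G38230. AT3G43740, a leucine-rich repeat family gene, had 2.85 and 4.02 CPM in atbmi1a,b, 14.3 and 16.8 CPM in atring1a,b, and 30.4 and 33.7 CPM in Col-0. The 3 groups did not overlap, and the log2 fold change was -3.22 ± 0.20 (SE) in atbmi1a,b with an adjusted p of 0.000222 and -1.04 ± 0.19 in atring1a,b with an adjusted p of 0.0297. All 8 libraries of clf-29, LHP1 mutants, swn-21 and clf-29swn-21 lay between 27.8 and 33.7 CPM, close to Col-0. Its peak at chr3:15643940-15644761 covers the gene's start and was found again in the second atbmi1a,b list. The atring1a,b change kept its sign in 10 of 10 alternatives and an adjusted p under 0.05 in 5 of them.

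XRCC4 (AT3G23100), which encodes a partner of DNA ligase IV in the joining of DNA double-strand breaks, had 2.06 and 2.66 CPM in atbmi1a,b, 9.19 and 9.07 CPM in atring1a,b, and 12.7 and 13.1 CPM in Col-0. It fell by 2.45 ± 0.22 (SE) on the log2 scale in atbmi1a,b with an adjusted p of 0.00127, and its change in atring1a,b was -0.50 with an adjusted p of 0.411. The 8 libraries of the other mutants lay between 11.3 and 19.5 CPM, so both atbmi1a,b libraries were below every other library. Its peak at chr3:8220497-8225213 was 4717 bp long, began upstream of the gene, lay 585 bp from a Col-0 peak that also touches the gene's target window, and was found in none of the unused lists.

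COBL2 (AT3G29810), a COBRA-like protein of a family anchored at the cell surface, had 0.190 and 0.406 CPM in atbmi1a,b, 1.56 and 1.43 CPM in atring1a,b, and 2.64 and 4.18 CPM in Col-0. The change was -3.52 ± 0.38 (SE) in atbmi1a,b with an adjusted p of 0.00337 and -1.18 ± 0.34 in atring1a,b with an adjusted p of 0.169. In clf-29 it had 12.3 and 11.02 CPM, and in clf-29swn-21 17.7 and 22.4 CPM, both above every Col-0 library. The log2 change was 1.78 in clf-29 with an adjusted p of 0.316 and 2.56 in clf-29swn-21 with an adjusted p of 0.000621. Its peak at chr3:11729508-11730429 lies over the end of the gene and was found again in the second atbmi1a,b and the lhp1-6 list.

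AT4G01740, a cysteine- and histidine-rich C1 domain gene, had 0.678 and 0.369 CPM in atbmi1a,b, 3.06 and 2.37 CPM in atring1a,b, and 4.25 and 4.13 CPM in Col-0. It fell by 2.97 ± 0.33 (SE) on the log2 scale in atbmi1a,b with an adjusted p of 0.00382, and the change in atring1a,b was -0.62 with an adjusted p of 0.47. The pseudogene AT5G38230 had no reads in either atbmi1a,b library, 0.0528 and 0.148 CPM in atring1a,b, and 0.586 and 0.344 CPM in Col-0. With 0 reads against 27 it was at least 10.6-fold lower in atbmi1a,b than in Col-0, from a floor of 3 counts over the group (adjusted p = 0.0441), and this call held in 3 of 10 alternatives.

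PARP2 (AT4G02390), a poly(ADP-ribose) polymerase that acts in DNA repair, had 2.55 and 0.960 CPM in atbmi1a,b, 7.81 and 4.49 CPM in atring1a,b, and 11.6 and 4.23 CPM in Col-0. Both atbmi1a,b libraries lay below both Col-0 libraries, and in all 3 groups the first library was the higher one. The change in atbmi1a,b was -2.16 ± 0.55 (SE) with an adjusted p of 0.157. The adjusted p was 0.0062 with the replicate number as a block and 0.0332 with growth temperature in the fit, and it ranged up to 1 over the alternatives. Its peak at chr4:1049993-1051156 was found again in both second PRC1 mutant lists and in none of the clf-29, tfl2-2 and lhp1-6 lists.

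Among the genes that rose in atbmi1a,b was AT4G00250, a storekeeper-related transcriptional regulator, which had 6.16 and 5.21 CPM in atbmi1a,b, 15.5 and 7.34 CPM in atring1a,b, and 0.644 and 0.786 CPM in Col-0. The log2 fold change was 2.99 ± 0.39 (SE) in atbmi1a,b with an adjusted p of 0.00753 and 4.0 ± 0.40 in atring1a,b with an adjusted p of 0.00253. The adjusted p stayed under 0.05 in 7 of 10 alternatives in atbmi1a,b and in 9 of 10 in atring1a,b. In atbmi1a,b it was 0.0732 without Col-0 replicate 1, 0.0521 without Col-0 replicate 2 and 0.448 in a fit of the 4 libraries compared. It was also high in clf-29swn-21 (18.2 and 14.9 CPM) and low in tfl2-2 (0.0567 CPM) and lhp1-6 (0.0891 CPM). The peak at chr4:114737-115886 lies upstream of this gene, 546 bp from a Col-0 peak, and in the body of its neighbour MEE45 (AT4G00260), a B3 family transcription factor gene, which had 0.108 and 0 CPM in atbmi1a,b, 6.44 and 0.986 CPM in atring1a,b, and no reads in Col-0. MEE45, named after its values were seen, was at least 82.5-fold higher in atring1a,b than in Col-0 from a floor of 3 counts over the group, with an adjusted p of 0.0897.

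AT1G30160, a gene with a DUF295 domain of unknown function, had 2.31 and 2.36 CPM in atbmi1a,b, 6.55 and 5.72 CPM in atring1a,b, and 1.87 CPM in both Col-0 libraries. It rose by 1.71 ± 0.24 (SE) on the log2 scale in atring1a,b with an adjusted p of 0.0113, while the change in atbmi1a,b was 0.32. Its level was also 6.12 CPM in tfl2-2 and 4.93 CPM in lhp1-6. AT1G63210, related to the transcription elongation factor Spt6, had no reads in atbmi1a,b, 1.35 and 1.23 CPM in atring1a,b, and 0.0293 and 0.0491 CPM in Col-0. Its 76 reads in atring1a,b against 2 in Col-0 give a ratio of 35.6 with an exact counting interval of 9.52 to 299 (adjusted p = 0.0488), and the call held in 4 of 10 alternatives. Both genes were also expressed in clf-29swn-21, at 13.2 and 14.7 CPM for AT1G30160 and at 1.55 and 1.07 CPM for AT1G63210.

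**Figure D5:**
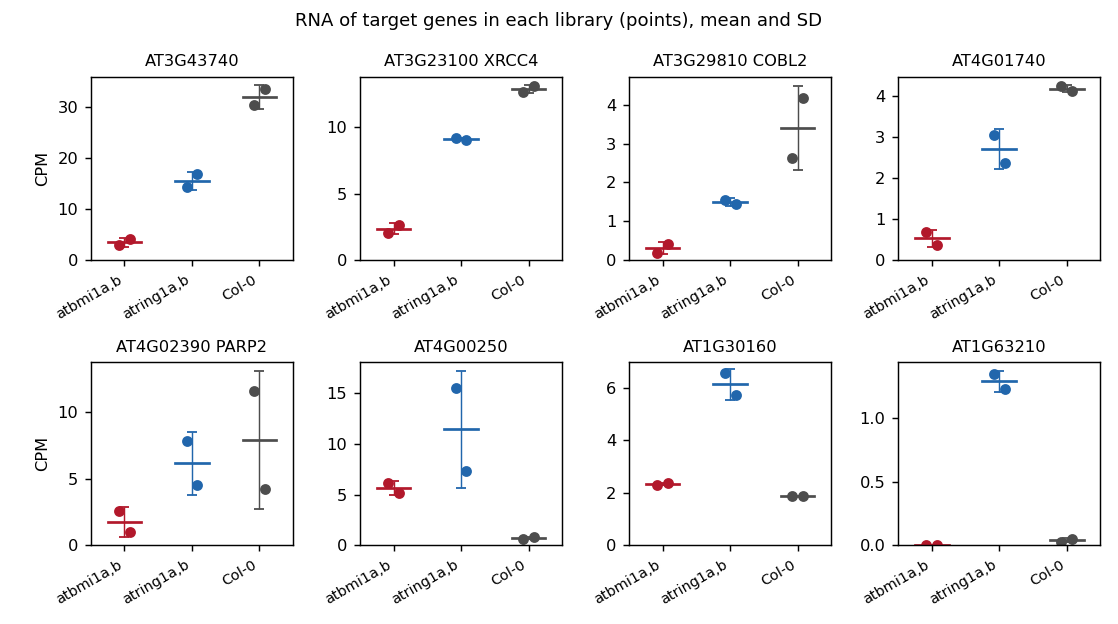
RNA level in CPM of 8 target genes in each atbmi1a,b, atring1a,b and Col-0 library (points), with the mean (line) and SD (bar) of 2 libraries. In the upper row both atbmi1a,b points lie below all others, and AT4G00250, AT1G30160 and AT1G63210 in the lower row are highest in atring1a,b.

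Of the 8 highest-scoring regions, 5 had as targets only genes under 1 RPKM in Col-0 and 3 also or only had more highly expressed ones. The strongest, chr2:5536229-5538022, covers AT2G13350, a calcium-dependent lipid-binding family gene with at most 1 read in any library. Next in score were the AT3G26855 region, which also lies upstream of AT3G26850, annotated as a histone-lysine N-methyltransferase, a region upstream of the vacuolar sorting gene VPS11 (AT2G05170), and a region over ROPGEF9 (AT4G13240), an activator of ROP GTPases that had 1 read in all 14 libraries. AT3G26850 had 13.1 and 7.75 CPM in atbmi1a,b, 13.9 and 16.3 CPM in atring1a,b, and 15.6 and 10.5 CPM in Col-0. VPS11 had 50.1 and 67.3 CPM in atbmi1a,b, 56.3 and 52.5 CPM in atring1a,b, and 51.9 and 67.8 CPM in Col-0. Both genes were thus expressed in all of these libraries, and the values of each mutant overlapped those of Col-0. EXT12, whose repeat is printed above, had 1 and 0 reads in atbmi1a,b, 0 and 1 in atring1a,b, and 2 and 1 in Col-0, but 268 and 6 in clf-29swn-21, so that nearly all its reads came from 1 library. AT4G29090, a ribonuclease H-like gene, had no read in any library and AT5G41720, an F-box associated gene, had 1. The eighth region, over the proline-rich protein gene AT4G19200 and upstream of ABCE2, lay at the most highly expressed of these genes, and AT4G19200 had 153 and 177 CPM in atbmi1a,b, 170 and 209 CPM in atring1a,b, and 212 and 306 CPM in Col-0. Its log2 change was -0.65 in atbmi1a,b with an adjusted p of 0.439. All 8 regions were found again in the second atbmi1a,b list.

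A region over the floral regulator AG was singled out after its values were seen. AG (AT4G18960), the MADS box gene that specifies stamens and carpels, carried a shared new peak at chr4:10385697-10389009, and tfl2-2 and lhp1-6 also had a peak there. No Col-0 peak was called under the target rule, which does not show that Col-0 lacked the mark at AG. Its RNA was barely detected in the PRC1 mutants and Col-0, at 0.108 and 0.0369 CPM in atbmi1a,b, 0.264 and 0.444 CPM in atring1a,b, and 0.351 and 0.0983 CPM in Col-0. In clf-29 it had 55.5 and 69.6 CPM, in tfl2-2 14.9 CPM, in lhp1-6 18.5 CPM and in clf-29swn-21 15.5 and 26.7 CPM. The log2 fold change was 7.98 ± 0.57 (SE) in clf-29 with an adjusted p of 0.00138 and 6.07 ± 0.54 in the LHP1 mutants with an adjusted p of 0.00626. In atbmi1a,b AG was called lower with a change of -1.61 at 5 reads, against 14 reads in Col-0 (adjusted p = 0.699), and it is 1 of the 20 lower targets. Every clf-29, LHP1 mutant and clf-29swn-21 library was above every PRC1 mutant and Col-0 library. AG and RBCS3B were the only genes of the floral, green shoot, seed and embryo, root and PcG lists among the targets.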

How the data were processed

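H3K27me3 ChIP-seq and RNA-seq of Arabidopsis seedlings were analysed from the deposited files. The authors mapped single ChIP reads with BWA to TAIR10 and called peaks per library with MACS, and the deposited lists give position and a score. The deposited RNA tables hold HTSeq read counts per gene from paired reads mapped with TopHat, and strand handling is not given in the sources used here. A table of the authors' fold changes and P values was not used. Peak lists were compared by overlap of at least 1 bp. RefSeq annotation of TAIR10 gave gene names and positions for 32835 of 33602 counted IDs. Lines without a gene held 2.66% to 3.43% of counts and were left out.

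Counts were tested with edgeR 4.0.16 (TMM, quasi-likelihood, all 14 libraries in 7 groups, R 4.3.3) after its filter on low counts, and with DESeq2 1.42.0 as an alternative. Other alternatives were RLE factors, no filter, growth temperature or a replicate block in the fit, the 4 libraries compared, each library left out, other target rules, stricter peak scores or overlaps and 500 bp windows. On simulated data 92.5% of 200 genes with a simulated log2 change of 2 in either direction were called in atbmi1a,b by fold and p, and 53% at an adjusted p under 0.05, as were 577 and 4 unchanged genes among the 21747 simulated. The changed genes were drawn only from those above a minimum mean CPM, and no replicate or growth temperature effect was simulated. These shares therefore do not describe targets with few reads. Overlaps, sequences and figures used Python 3.11.15.

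Genes named were up to 10 targets with the largest change at an adjusted p under 0.05 and one direction in both replicate pairs in each PRC1 mutant, targets of the 8 highest-scoring regions, up to 10 targets of regions in both second PRC1 lists by score, the mutated PcG genes and the 5 targets highest in Col-0, which came to 29 targets. Of these, 8 are plotted. MEE45, GSTU1 to GSTU4, AG and the gene description words were chosen after their values were seen. The regions and gene lists were chosen with earlier results of these data known.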

Additional observations from a re-analysis of the deposited data

Results flagged for a closer look

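The direct comparison of atring1a,b with atbmi1a,b RNA differed beyond the spread between libraries for 3 of the named targets in the edgeR fit, with p-values adjusted over all genes by Benjamini-Hochberg. AT3G43740 was higher in atring1a,b than in atbmi1a,b by 2.18 on the log2 scale (adjusted p = 0.00553), XRCC4 by 1.95 (adjusted p = 0.0128) and AT4G01740 by 2.35 (adjusted p = 0.0352). For each of them both atring1a,b libraries lay above both atbmi1a,b libraries. Genes with an adjusted p under 0.05 in this direction made up 0.118% of all genes tested.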

How the results depend on the processing

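No called change of a named target turned its sign under the alternatives run. Changes that were not called did so when 1 library was left out, such as PBP1 in atbmi1a,b (0.10, and -0.58 without atbmi1a,b replicate 2) and PARP2 in atring1a,b (-0.36, and 0.54 without Col-0 replicate 1). In atring1a,b, higher targets outnumbered lower ones in the reported fit, whereas lower ones were more frequent with DESeq2 (18 higher and 23 lower), with growth temperature in the fit (19 and 23), with the block and in several settings below. The 462 regions became 130 with scores of at least 100 in the lists, 177 with the second clf-29, tfl2-2 and lhp1-6 lists excluded too, 248 with the second atbmi1a,b list also required and 48 from the second lists of both mutants. For regions scored at least 100 the share was 61.2% in the second atbmi1a,b, 20.1% in the second atring1a,b and 60.4% in the tfl2-2 list. Counting only list peaks scored at least 100 gave 39.4% in the second atbmi1a,b, 1.52% in the second atring1a,b, 5.19% in the second clf-29, 28.8% in the tfl2-2 and 9.09% in the lhp1-6 list. With at least 50% of the region covered, the lhp1-6 share was 17.7%. Windows of 500 bp held the telobox in 5.63%, GAGAGA in 40.5%, CATGCA in 17.7% and CACGTG in 4.33%, against 3.75%, 36.6%, 18.7% and 5.34% of tiled windows. GAGAGA was thus above the tiled share at 500 bp and below it at 1000 bp, with intervals that included it at both sizes, and the median GC content turned likewise. The atbmi1a,b target counts of 8 higher and 20 lower became 5 and 12 with the 4 libraries compared, 1 and 5 at an adjusted p under 0.05, 1 and 9 at scores of at least 100 and 1 and 12 for regions in a second PRC1 mutant list, and the peak centre rule gave 4 higher. Of the atring1a,b target counts of 18 higher and 16 lower, the same settings gave 8 and 9, 3 and 1, 4 and 6, and 5 and 9. Over all genes, 875 higher and 338 lower in atbmi1a,b became 182 and 30 at an adjusted p under 0.05, and the 4 libraries gave 169 lower. In atring1a,b, 1105 and 574 became 277 and 32, and 679 and 309. Across the alternatives that refit all genes, lower targets in atbmi1a,b made up 5.13% to 11.3% of those tested, against 0.829% to 2.76% of all genes.

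Leaving out 1 library gave 7 to 13 higher and 21 to 25 lower targets in atbmi1a,b and 14 to 28 higher and 10 to 24 lower in atring1a,b. Over all genes it gave 812 to 1224 higher and 271 to 631 lower in atbmi1a,b, and 965 to 2488 higher and 340 to 1650 lower in atring1a,b. The highest counts in atring1a,b came without Col-0 replicate 1. The lone remaining library was assumed to vary like the other groups. The cause of these shifts was not tested.

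With the replicate number as a block, 13 targets were higher and 28 lower in atbmi1a,b and 18 higher and 22 lower in atring1a,b, and over all genes 1046 higher and 511 lower in atbmi1a,b and 1469 higher and 696 lower in atring1a,b. Deviations of same-numbered libraries correlated at 0.266 to 0.735 over the 6 pairs of atbmi1a,b, atring1a,b, clf-29 and Col-0, whose numbers go with growth temperature, and at -0.133 to 0.0633 over the other 9 pairs of groups, and the labels do not say what a number marks, so pairing was kept as an alternative. Among the named targets the block moved only PARP2 in atbmi1a,b across the adjusted threshold. Over the named targets and alternatives, 10 values lost and 3 gained their call and 425 kept their side. Among the lost calls are those of PARP2 in atbmi1a,b and of AT5G38230 and COBL2 in atring1a,b, which failed when an adjusted p under 0.05 was required. Peaks from 1 library per list and RNA from 2 libraries per group limit precision, and a missing peak in the shallow second atring1a,b library does not show absence of the mark.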
